A study of Mus musculus with 22 samples.

Results

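The arrays described here are the 6 carcinogen-exposed mouse bladders with the highest interferon score and the 6 with the lowest, 12 of the 22 arrays in the series. The score is the mean log2 level of 5 interferon-induced genes, Isg15, Oas1a, Ifit1, Ifit3 and Irf7, each centred on its mean over the 19 carcinogen-exposed arrays. A level is the log2 processed signal of a gene's brightest probe minus the array's 75th percentile, so that 0 is the 75th percentile of that array and 1 unit is a doubling. The sides were therefore chosen from measured values of these same arrays, and every difference between them below is a description without a test. The 5 genes that made the score are left out of the counts.

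The carcinogen was BBN, the nitrosamine N-butyl-N-(4-hydroxybutyl)nitrosamine, given in the drinking water for 24 weeks, from 2 to 8 months of age, and RNA came from whole bladders labelled as bladder tumor. The interferon-high side held Krt5-CreERT2; LSL-RFP; Trp53R270H/+ replicate 1, Upk2-CreERT2; LSL-RFP; Trp53R172H/+ replicate 1, Krt5-CreERT2; LSL-RFP; Trp53R172H/+ replicate 2, Trp53R270H/+ replicate 3 without tamoxifen, Krt5-CreERT2; LSL-RFP replicate 2 and Upk2-CreERT2; LSL-RFP replicate 1. The interferon-low side held Krt5-CreERT2; LSL-RFP; Trp53R270H/+ replicates 2 and 3, Upk2-CreERT2; LSL-RFP; Trp53R270H/+ replicate 1, Upk2-CreERT2; LSL-RFP; Trp53R172H/+ replicate 3, Krt5-CreERT2; LSL-RFP; Trp53R172H/+ replicate 1 and Upk2-CreERT2; LSL-RFP replicate 2. Below, groups are named by driver and mutation (such as Krt5-Cre R270H), by driver alone where no mutation was carried (Krt5-Cre, Upk2-Cre), and Trp53 het for the mice without tamoxifen. The Krt5 promoter drives the tamoxifen-dependent Cre in basal cells and the Upk2 promoter drives it in luminal urothelium, so an activated Trp53 mutation is carried by recombined epithelial cells and not by the whole bladder. All groups other than Trp53 het received tamoxifen. Another 7 BBN arrays lay between the sides, and 3 arrays of wild type bladder urothelium given neither BBN nor tamoxifen are called normal. The 3 normal arrays were alone on slide 4, and all BBN arrays were on slides 1 to 3. BBN, slide, genotype and the tissue named in the label therefore cannot be told apart in any comparison with normal below. Tamoxifen differed as well, for all groups other than Trp53 het.

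Interferons are secreted proteins that cells release on sensing foreign or misplaced nucleic acid, or, for interferon-gamma, on activation of T and NK cells. Type I interferons act through a complex that includes STAT2 and IRF9 and binds the interferon-stimulated response element (ISRE), and interferon-gamma acts mainly through the gamma-activated site (GAS). The induced genes block viral RNA, load peptides on MHC class I, attract lymphocytes and feed back on the pathway itself.

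The ISRE was searched as GAAANNGAAA on both strands, where its other strand reads TTTCNNTTTC, in a window from 250 bases before to 50 bases after each RefSeq gene start of GRCm38.p6. Of the 30 genes that were higher without overlap on the interferon-high side (below), 24 had such a window and 10 of them (41.7%) held the pattern. It was present in 465 of the 12400 tested genes with a window (3.75%) and in 1079 of all 27025 genes with a window (3.99%). The 10 genes were Apol9a, Apol9b, Ddx60, Gzma, Ifih1, Ifit3b, Irgm1, Stat2, Trim21 and Trim30a. The GAS, searched as TTCNNNGAA, which reads the same on both strands, was present in 1 of the 24 (4.17%), against 8.56% of tested genes with a window. Most whole lists searched held it more often: 5 of 9 GTPases (55.6%), 3 of 8 transcription factors (37.5%), 9 of 35 antiviral effectors (25.7%), 4 of 18 T and NK cell genes (22.2%) and 2 of 17 MHC class I genes (11.8%). The cell cycle list did not, with 1 of 25 (4.0%). In 0 of the 24 separated genes did the patterns share bases. A match is a stretch of letters and not a measured binding site, and these arrays hold no binding data.

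The 250 bases before the start are shown for 5 genes that carry the pattern there, because they stand for the functions described below: a cytotoxic enzyme, an antiviral effector, a helicase, a GTPase and a transcription factor. Capitals mark the ISRE pattern, and sequences run 5′ to 3′ on the gene's strand. The Gzma window is chr13:113100982-113101231, minus strand, with the pattern starting at -97 from the start. The Ifit3b window is chr19:34607707-34607956, plus strand, with patterns at -188 and -154. The Ddx60 window is chr8:61927837-61928086, plus strand, with patterns at -53 and -19. The Irgm1 window is chr11:48871421-48871670, minus strand, with patterns at -30 and -24 that share bases. The Stat2 window is chr10:128270248-128270497, plus strand, with the pattern at -222.
Gzma: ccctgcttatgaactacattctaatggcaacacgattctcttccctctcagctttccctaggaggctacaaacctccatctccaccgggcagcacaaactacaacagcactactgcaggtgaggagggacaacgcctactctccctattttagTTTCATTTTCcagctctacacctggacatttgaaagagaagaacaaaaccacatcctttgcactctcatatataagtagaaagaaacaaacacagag
Ifit3b: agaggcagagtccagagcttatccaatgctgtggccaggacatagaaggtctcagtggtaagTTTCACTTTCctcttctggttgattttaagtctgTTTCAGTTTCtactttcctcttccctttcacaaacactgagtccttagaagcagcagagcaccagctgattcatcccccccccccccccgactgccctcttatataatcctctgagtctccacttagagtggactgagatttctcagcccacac
Ddx60: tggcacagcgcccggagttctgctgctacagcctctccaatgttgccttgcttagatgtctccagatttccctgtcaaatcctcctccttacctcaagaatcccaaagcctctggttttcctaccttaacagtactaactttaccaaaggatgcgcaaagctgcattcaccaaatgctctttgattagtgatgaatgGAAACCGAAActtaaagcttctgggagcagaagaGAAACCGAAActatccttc
Irgm1: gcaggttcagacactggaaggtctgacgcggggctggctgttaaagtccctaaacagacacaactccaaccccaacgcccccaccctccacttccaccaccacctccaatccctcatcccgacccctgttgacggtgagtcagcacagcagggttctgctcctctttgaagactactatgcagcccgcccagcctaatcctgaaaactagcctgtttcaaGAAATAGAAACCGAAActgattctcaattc
Stat2: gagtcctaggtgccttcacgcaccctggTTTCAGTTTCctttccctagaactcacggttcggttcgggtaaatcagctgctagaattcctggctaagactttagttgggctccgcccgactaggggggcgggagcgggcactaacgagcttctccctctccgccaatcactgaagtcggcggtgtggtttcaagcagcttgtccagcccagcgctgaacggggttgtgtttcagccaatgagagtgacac

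**Figure D1:**
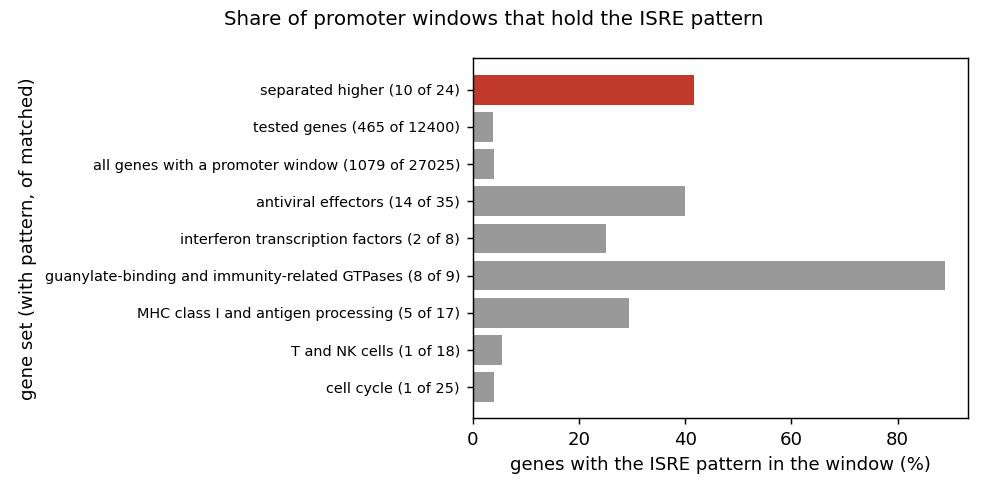
Share of genes whose promoter window holds the ISRE pattern (x axis, %) for the 30 separated genes and for other sets (y axis, with the number of genes that hold it and the number matched to a window). The bar for the separated genes ends at 41.7% (10 of 24) and that of all tested genes with a window at 3.75%. The guanylate-binding and immunity-related GTPases reached 88.9% (8 of 9) and the cell cycle genes 4.0% (1 of 25).

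Before the values, 3 facts about the arrays bear on how the sides are read. The share of spots well above background ranged from 43.0% to 60.5% on interferon-high arrays, against 42.4% to 57.6% on interferon-low arrays. Sex-linked RNA moved with the side: Xist, the RNA of the inactive X chromosome, was above background on 5 of 6 interferon-high arrays and 1 of 6 interferon-low arrays, and at least 2 of 4 Y-linked genes were above background on 1 of 6 interferon-high arrays and 5 of 6 interferon-low arrays. The sex read from these genes did not match the sex label on 5 of the 12 arrays (3 interferon-high, 2 interferon-low), nor on 3 of the 3 normal arrays; whether other labels of these arrays are affected was not tested. Upk2-Cre replicate 1 (interferon-high) and replicate 2 (interferon-low) carry the same animal code in the labels, yet their deviations from the mean of the BBN arrays correlated at 0.03 across 15689 genes. The median over all pairs was -0.07. Replicate 1 had Xist and 0 of 4 Y-linked genes above background, and replicate 2 had 4 of 4 Y-linked genes without Xist. The 2 arrays thus read as opposite sexes despite the shared code. The array reads all Trp53 transcripts together and cannot tell a mutated from an unmutated copy. Trp53 had levels from -1.47 to 0.82 (median 0.34) on interferon-high arrays, against -0.71 to 1.56 (median 0.23) on interferon-low arrays. The basal epithelial markers were high on both sides, while the luminal marker was far below its normal level. The basal keratin gene Krt5 had 8.10 to 9.37 (median 8.70) on interferon-high arrays, against 7.55 to 9.68 (median 8.52) on interferon-low arrays. Its partner Krt14 had 8.27 to 10.28 (median 8.98) on interferon-high arrays, against 8.01 to 10.17 (median 8.68) on interferon-low arrays. The luminal gene Upk2 had -1.37 to 0.80 (median 0.08) on interferon-high arrays, against -3.55 to 3.43 (median 0.32) on interferon-low arrays, the lowest of which (Krt5-Cre R172H replicate 1) was not above background, with a normal mean of 6.14 ± 0.32 (SD, n = 3).

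The score ran from 0.38 to 1.87 on interferon-high arrays, against -2.0 to -0.46 on interferon-low arrays. Krt5-Cre R270H replicate 1 (1.87) and Trp53 het replicate 3 (1.61) were well above the other 4 arrays of their side, which lay at 0.90 or below. The upper edge was close: Upk2-Cre R172H replicate 1 was the sixth at 0.378, and Krt5-Cre R172H replicate 4 was just outside at 0.372. At the lower edge, Krt5-Cre R270H replicate 2 was inside at -0.456 and Krt5-Cre R172H replicate 3 outside at -0.382. Normal arrays scored from -3.30 to -3.0, so each of the 19 BBN arrays lay above all 3 normal ones. Isg15, the ubiquitin-like protein joined to other proteins after interferon exposure, averaged 5.82 ± 0.75 on the interferon-high side, 3.57 ± 0.51 on the interferon-low side (SD, n = 6 each) and 0.74 ± 0.09 in normal bladder (SD, n = 3). Interferon-low thus names a rank among BBN bladders, and the distance to normal bladder depended on the gene. Ifit3 was below all 3 normal arrays on 2 interferon-low arrays, Upk2-Cre replicate 2 (-0.68) and Krt5-Cre R172H replicate 1 (-1.05), where normal arrays had -0.30 to 0.18.

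**Figure D2:**
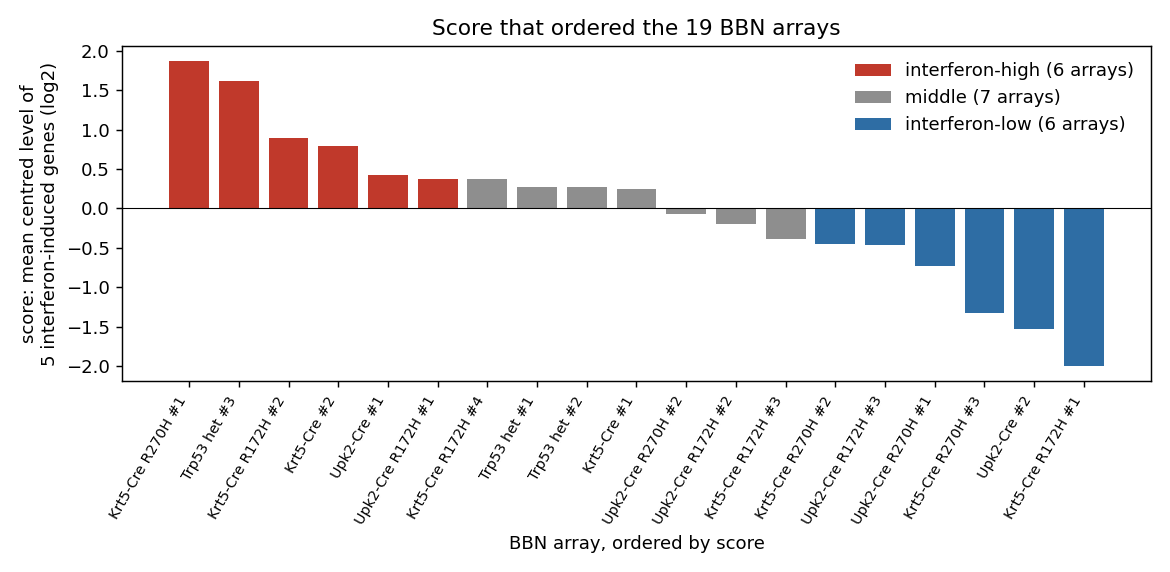
Interferon score (y axis, mean centred log2 level of the 5 genes) of the 19 BBN arrays, ordered from highest to lowest (x axis). The 6 interferon-high arrays lie between 0.38 and 1.87 and the 6 interferon-low arrays between -2.0 and -0.46, and the sixth and seventh bars, at 0.378 and 0.372, are almost level.

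Of 15689 genes above background on at least 6 of the 19 BBN arrays, 30 (0.191%) were higher on all 6 interferon-high arrays than on any interferon-low array with means at least 1 log2 unit apart. Only 3 genes (0.0191%) were lower by the same definition, which is called separated here. By the mean alone, 288 genes (1.84%) were at least 1 unit higher and 325 (2.07%) at least 1 unit lower, and the median over all tested genes was 0.02. Of the 30 genes, 20 belonged to the lists of interferon response and MHC class I genes used below. Those lists held 133 of the 15689 tested genes, and they were chosen with earlier results of these data known. Other probes were present for 10 of the genes separated in either direction, some of them dim. Only that of Ifi35 also kept the sides without overlap. The call is sensitive to the sides as well. With 7 arrays a side 7 genes were separated upward, with arrays of a shared animal code averaged 12, and with the near-tie at the upper edge turned round 16; leaving out 1 array gave 30 to 83. The downward count ranged from 0 to 13 over other normalizations and single left-out arrays. It was 18 without Krt5-Cre R172H replicates 1 and 2, and 31 within the scanner of slides 1 and 2. On the 7 arrays in between, the median level fell between the means of the 2 sides for 28 of the 30 (27.7% of all tested genes). That is largely built into the choice, since the 30 genes have means at least 1 unit apart and these 7 arrays have scores in between. The share of all tested genes is not a like comparison, because it includes genes whose sides hardly differ. All 6 interferon-high arrays lay above all 3 normal arrays for 24 of the 30 (25.2% of all tested genes), and all 19 BBN arrays did so for 8 (14.7%). The interferon-low mean lay above the normal mean for 18 of the 30 (54% of all tested genes), and below it for Stat2, at 1.09 against 1.51, and Nlrc5, at -0.97 against 0.15.

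**Figure D3:**
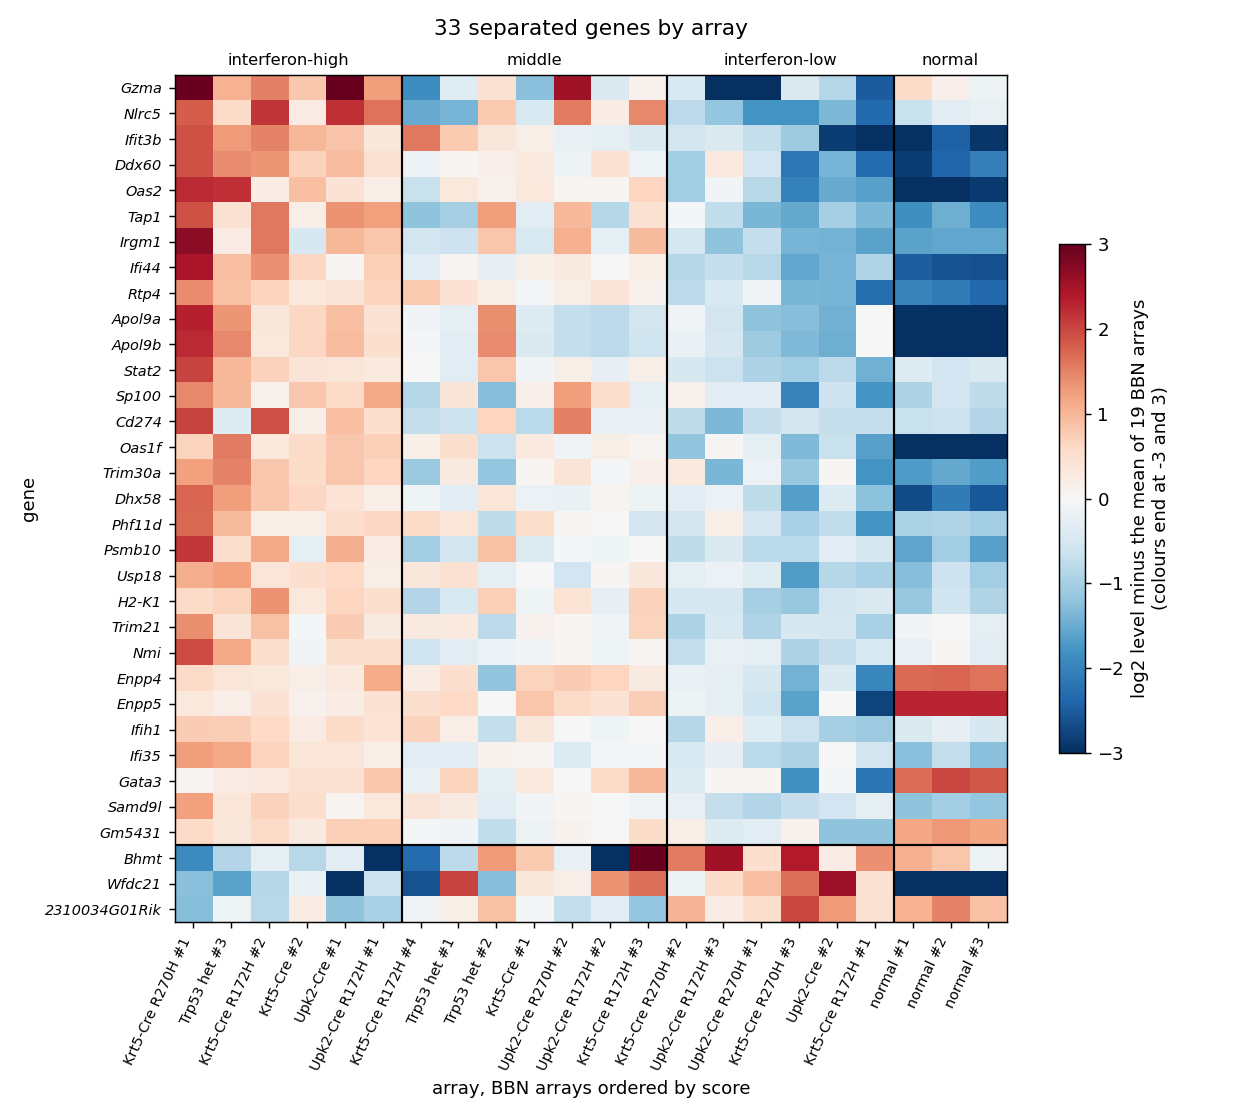
Levels of the 30 genes separated upward (top) and the 3 separated downward (bottom), one row a gene and one column an array, as log2 level minus the mean of the 19 BBN arrays (colour, ends at -3 and 3). Columns run from interferon-high through middle to interferon-low by score, with the 3 normal arrays on the right. Normal arrays are pale or blue in most of the upper rows and red in the rows of Enpp4, Enpp5, Gata3 and Gm5431.

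Among 19 interferons, interferon-related cytokines and receptors tested, none was separated, 8 had a mean difference above 0 (52.8% of all tested genes did) and the median difference was -0.09. Ifng, which encodes interferon-gamma, was above background on 4 of 6 interferon-high arrays and on 0 of 6 interferon-low arrays. Its levels were -0.36 in Krt5-Cre R270H replicate 1, -1.09 in Upk2-Cre replicate 1, -1.82 in Krt5-Cre R172H replicate 2 and -2.90 in Upk2-Cre R172H replicate 1. The signals of Krt5-Cre replicate 2 (-3.87) and Trp53 het replicate 3 (-6.11) were not above background, although Trp53 het replicate 3 had the second highest score. Interferon-low signals ran from -7.35 to -4.66, and signals that are not above background have no order among themselves. The mean was -2.69 on the interferon-high side, against -5.73 on the interferon-low side. With each interferon-low array taken at no less than its dimmest detected probe, Ifng was 2.04-fold higher on the interferon-high side. The interferon-high mean includes the signals of Krt5-Cre replicate 2 and Trp53 het replicate 3 that were not above background, so this fold is not a strict lower bound. Ifnb1, the gene of interferon-beta, was above background on 0 of 6 interferon-high arrays and on 1 of 6 interferon-low arrays.

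The transcription factor list (12 genes tested) had 3 separated genes, 8 at least 1 unit higher and a median difference of 1.24. Nlrc5, the coactivator of MHC class I genes, had 0.81 to 2.76 (median 2.28) on interferon-high arrays, against -1.77 to -0.22 (median -1.01) on interferon-low arrays. That is a difference of 2.97 log2 units, the second largest among the separated genes, and a second Nlrc5 probe differed by 1.07 with signal above background on 11 of 19 arrays. Stat2, a subunit of the type I complex, had 2.26 to 4.0 (median 2.51) on interferon-high arrays, against 0.54 to 1.5 (median 1.12) on interferon-low arrays. Stat2 differed by 1.67 on that probe and by 0.46 on a dimmer second probe. Nmi, a protein that binds STAT factors, had 2.14 to 4.18 (median 2.74) on interferon-high arrays, against 1.30 to 2.01 (median 1.65) on interferon-low arrays. Irf9, the DNA-binding subunit of the type I complex, also did not overlap, with 2.84 to 3.66 on interferon-high arrays, against 1.80 to 2.76 on interferon-low arrays, but its difference of 0.94 lay under 1 unit.

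Of 17 sensors and adaptors, 2 were separated and the median difference was 0.37. Ifih1 encodes MDA5, a cytosolic sensor of double-stranded RNA. It had 0.34 to 0.85 (median 0.68) on interferon-high arrays, against -0.99 to 0.31 (median -0.65) on interferon-low arrays. Dhx58 encodes the related protein LGP2. It had -0.19 to 1.35 (median 0.33) on interferon-high arrays, against -2.04 to -0.57 (median -0.98) on interferon-low arrays. Zbp1, a sensor of Z-form nucleic acid, differed by 2.01 with overlap in 1 interferon-high array. Myd88, an adaptor of Toll-like receptors, differed by -0.38 and overlapped. Among 8 brakes on the pathway, 1 was separated and the median difference was 0.42. Usp18, which removes ISG15 from proteins and dampens the type I receptor, had 2.40 to 3.43 (median 2.79) on interferon-high arrays, against 0.55 to 2.05 (median 1.62) on interferon-low arrays. Socs1 differed by 1.33 and Socs3 by -0.12, both with overlap.

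The antiviral effector list (41 genes tested) held 9 separated genes, 22 at least 1 unit higher and 38 above 0, and its median difference was 1.12. Its mean centred level ran from -0.14 to 1.25 on interferon-high arrays, against -1.09 to -0.02 on interferon-low arrays, and 5 of the 6 interferon-high arrays lay above all interferon-low ones. Ifit3b, whose protein belongs to a family that binds foreign RNA ends, had 1.06 to 2.63 (median 1.86) on interferon-high arrays, against -2.44 to 0.31 (median -0.16) on interferon-low arrays. It is a close copy of Ifit3, which made the score, so its probe may share that gene's signal. Oas2, an enzyme that makes the oligoadenylates which activate RNase L, had 2.31 to 4.34 (median 2.78) on interferon-high arrays, against 0.08 to 2.02 (median 0.84) on interferon-low arrays. A second Oas2 probe differed by 0.07, with signal above background on 2 of 19 arrays. Ifi44 had 0.72 to 3.11 (median 1.47) on interferon-high arrays, against -0.90 to -0.02 (median -0.20) on interferon-low arrays. Rtp4, a chaperone of receptors with antiviral activity in mice, had 3.64 to 4.72 (median 3.98) on interferon-high arrays, against 1.05 to 3.24 (median 2.23) on interferon-low arrays. These differences were 2.60, 2.22, 2.05 and 1.78 for Ifit3b, Oas2, Ifi44 and Rtp4. Trim30a, a regulator of Toll-like receptor signalling in mice, differed by 1.61, Sp100, a component of PML nuclear bodies, by 1.67 and Phf11d by 1.43. Trim21, an antibody receptor in the cytosol, and Ifi35, a partner of NMI, differed by 1.31 and 1.16 and were named after their values were seen.

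Further separated genes lay outside this list. Ddx60, a helicase linked to RNA sensing, had -2.01 to -0.55 (median -1.34) on interferon-high arrays, against -4.76 to -2.16 (median -3.66) on interferon-low arrays, where 3 of 6 signals were not above background, so the difference of 2.31 rests partly on background. The near-identical Apol9a and Apol9b each differed by 1.76, and their probes may not tell the copies apart. Apol9a had 4.20 to 6.18 on interferon-high arrays, against 2.42 to 3.84 on interferon-low arrays and a normal mean of -0.10 ± 0.17 (SD, n = 3). Oas1f, a relative of the score gene Oas1a, had 3.35 to 4.60 on interferon-high arrays, against 1.42 to 3.07 on interferon-low arrays. Samd9l, a restriction factor of poxviruses, differed by 1.1 and was named after its values were seen.

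The interferon-inducible GTPases, which attack the membranes around intracellular pathogens, had the highest median difference of all 27 lists. Of 16 tested, 15 were at least 1 unit higher and the median was 2.29, yet only Irgm1 was separated. Irgm1 had 1.58 to 4.73 (median 2.96) on interferon-high arrays, against 0.46 to 1.56 (median 0.76) on interferon-low arrays. It differed by 2.11, and its other 2 probes differed by 1.87 and 2.02. Those 2 probes were above background on all 19 BBN arrays, yet the sides overlapped on both. Tgtp2, which has a near-identical copy, differed by 4.17, Igtp by 3.20 and Gbp3 by 2.39, with 5, 4 and 5 of the 6 interferon-high arrays above all interferon-low ones. The list's mean centred level ran from -0.81 to 2.82 on interferon-high arrays, against -1.86 to 0.60 on interferon-low arrays, so that these genes were not high on every array of the interferon-high side.

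MHC class I molecules show peptides from inside the cell to CD8 T cells. Of 22 genes of this machinery, 4 were separated, 12 were at least 1 unit higher, 22 lay above 0 and the median difference was 1.15. H2-K1, a class I heavy chain, had 7.36 to 8.41 (median 7.67) on interferon-high arrays, against 5.91 to 6.61 (median 6.51) on interferon-low arrays and 6.17 ± 0.26 in normal bladder (SD, n = 3). H2-K1 belongs to a family of near-identical genes, and its second probe differed by 1.25, against 1.37 for the first. On that second probe the sides overlapped. Tap1, a subunit of the transporter that brings peptides into the endoplasmic reticulum, had 2.43 to 4.16 (median 3.54) on interferon-high arrays, against 0.72 to 2.2 (median 1.08) on interferon-low arrays. Psmb10, a subunit of the immunoproteasome that cuts those peptides, had 4.71 to 7.14 (median 5.82) on interferon-high arrays, against 4.21 to 4.68 (median 4.39) on interferon-low arrays. B2m, the light chain shared by class I molecules, differed by 1.74 with overlap in 1 interferon-high array. MHC class II genes (10 tested) had a median difference of 1.30 but none was separated, and their mean centred level overlapped widely, from -0.31 to 1.54 on interferon-high arrays, against -1.94 to 1.53 on interferon-low arrays.

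Of 18 chemokines, checkpoint and cell death genes that respond to interferon, 1 was separated, 7 were at least 1 unit higher and the median difference was 0.71. Cd274 encodes PD-L1, the ligand that restrains T cells through PD-1. Its levels were 0.68 in Krt5-Cre R270H replicate 1, 0.59 in Krt5-Cre R172H replicate 2, -0.43 in Upk2-Cre replicate 1, -0.83 in Upk2-Cre R172H replicate 1, -1.17 in Krt5-Cre replicate 2 and -1.72 in Trp53 het replicate 3. On interferon-low arrays Cd274 had -2.70 to -1.89 (median -2.05), close to the normal mean of -2.07 ± 0.13 (SD, n = 3). The 6 interferon-high arrays thus spread over more than 2 log2 units while 5 of the 6 interferon-low arrays lay at or above -2.11. Casp4, an inflammatory caspase, had 2.16 to 3.19 on interferon-high arrays, against 1.14 to 2.04 on interferon-low arrays, a difference of 0.98 without overlap. Cxcl10, a chemokine for T cells, had -0.63 to 4.90 on interferon-high arrays, against -1.59 to 0.89 on interferon-low arrays.

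Cxcl9, named here after its values were seen, is a chemokine for the same receptor whose induction depends mainly on interferon-gamma. It had 3.76 in Krt5-Cre R270H replicate 1, 2.38 in Krt5-Cre R172H replicate 2 and 1.29 in Upk2-Cre replicate 1. In Upk2-Cre R172H replicate 1 it had -0.81, in Trp53 het replicate 3 it had -2.78, and in Krt5-Cre replicate 2 its signal of -4.40 was not above background. On interferon-low arrays it was above background on 1 of 6, Krt5-Cre R270H replicate 2, at -0.49. The 2 interferon-high arrays without Ifng signal above background were also the lowest of their side for Cxcl9 and Cd274. They were the lowest for Nlrc5 too, at 1.13 in Trp53 het replicate 3 and 0.81 in Krt5-Cre replicate 2. Krt5-Cre R270H replicate 2, the interferon-low array with Cxcl9 signal, had no Ifng signal above background. Whether Ifng accounts for these levels was not tested.

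**Figure D4:**
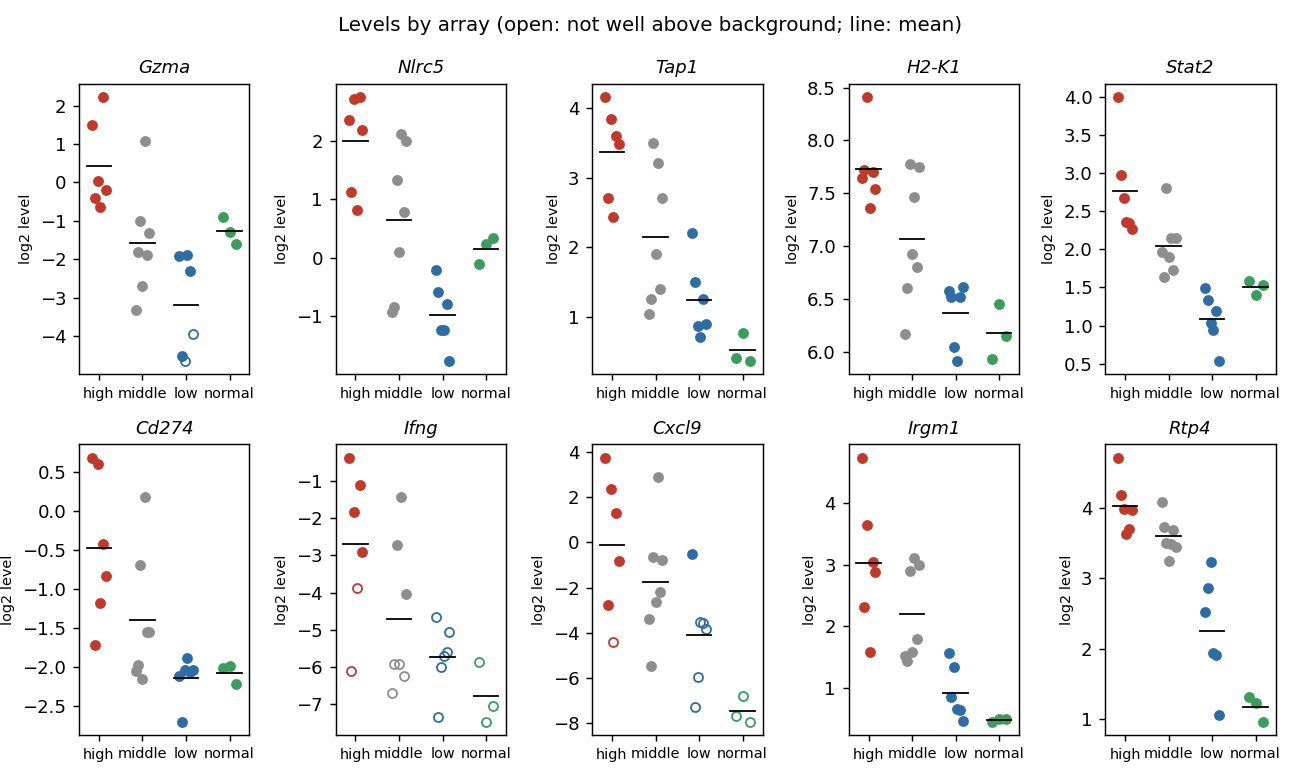
Levels (y axes, log2) of 10 genes on each array, by side: interferon-high, middle and interferon-low BBN arrays and normal arrays. Points are arrays, open where the probe was not well above background, and lines are means. Interferon-high and interferon-low points do not overlap for Gzma, Nlrc5, Tap1, H2-K1, Stat2, Cd274, Irgm1 and Rtp4 and overlap for Ifng and Cxcl9.

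The largest difference of any separated gene, 3.62, belonged to Gzma, which encodes granzyme A, a protease in the granules of T and NK cells. Gzma had 2.23 in Upk2-Cre replicate 1, 1.5 in Krt5-Cre R270H replicate 1, 0.05 in Krt5-Cre R172H replicate 2, -0.19 in Upk2-Cre R172H replicate 1, -0.41 in Trp53 het replicate 3 and -0.64 in Krt5-Cre replicate 2. On interferon-low arrays it had -4.65 to -1.89 (median -3.12), above background on 4 of 6. Normal bladder, at -1.26 ± 0.36 (SD, n = 3), lay above all 6 interferon-low arrays. Of 25 T and NK cell genes tested, 20 lay above 0, 15 were at least 1 unit higher and the median difference was 1.36. Gzma alone was separated, the other members lay on both sides of 0, and the lowest difference was -0.76. The median was -0.42 over the 6 of these genes above background on all 12 arrays, -0.39 over 6 genes in the deposited table and 0.61 after normexp, so its direction rests on genes that were not above background on every array. Nkg7, a granule protein, was above background on 5 interferon-high arrays and 1 interferon-low array. The T cell receptor component Cd3g and the NK receptor Klrd1 were each above background on 4 interferon-high arrays and 1 interferon-low array. The list's mean centred level ran from -0.72 to 1.76 on interferon-high arrays, against -1.64 to 0.97 on interferon-low arrays, and 2 interferon-high arrays lay above all interferon-low ones. In whole bladder RNA, more cells of a type and more RNA per cell cannot be told apart.

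Lists of other cells differed less or in the opposite direction, all with overlap. The median difference was -0.10 for B and plasma cells (9 tested), -0.02 for macrophages (18), 0.14 for dendritic cells (13) and -0.68 for neutrophil and alarmin genes (22). Of 15 endothelial genes, 0 lay above 0 and the median was -0.83. Their mean centred level ran from -1.40 to -0.12 on interferon-high arrays, against -0.81 to 2.01 on interferon-low arrays. Of 17 fibroblast and matrix genes, 0 lay above 0 and the median was -0.59, with mean centred levels from -1.36 to -0.08 on interferon-high arrays, against -0.81 to 1.31 on interferon-low arrays. Col1a1, the main fibrillar collagen, differed by -1.30 and overlapped. Smooth muscle genes (14 tested) had a median of 0.51. The part of these cell type genes in the interferon differences was not tested.

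Within the epithelium, the medians were 0.17 for basal (20 tested), 0.10 for squamous (25) and 0.15 for luminal genes (23), beside 0.02 for all genes. Gata3, a transcription factor of luminal urothelium, was the separated member of these lists. It had 4.50 to 5.25 (median 4.80) on interferon-high arrays, against 2.25 to 4.50 (median 4.21) on interferon-low arrays, so that the sides met at 4.50 after rounding, and the normal mean of 6.28 ± 0.16 (SD, n = 3) was above both. Enpp4 and Enpp5, neighbouring members of the phosphodiesterase family on chromosome 17, followed the same order and were named after their values were seen. Enpp5 had -0.38 to -0.06 on interferon-high arrays, against -3.28 to -0.51 on interferon-low arrays and 1.79 ± 0.01 in normal bladder (SD, n = 3). Enpp4 differed by 1.28 and Enpp5 by 1.19. The predicted gene Gm5431 differed by 1.0 and was dim, above background on 4 interferon-high and 2 interferon-low arrays. Gata3 stayed separated under 18 and Gm5431 under 12 of 30 alternatives. The remaining lists had medians of 0.20 for cell cycle (29 tested), -0.14 for p53 targets (25), -0.06 for immediate early and heat shock genes (17), 0.13 for glycolysis and hypoxia (18), 0.04 for nerve and Schwann cells (9) and -0.37 for fatty acid and xenobiotic metabolism (17).

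**Figure D5:**
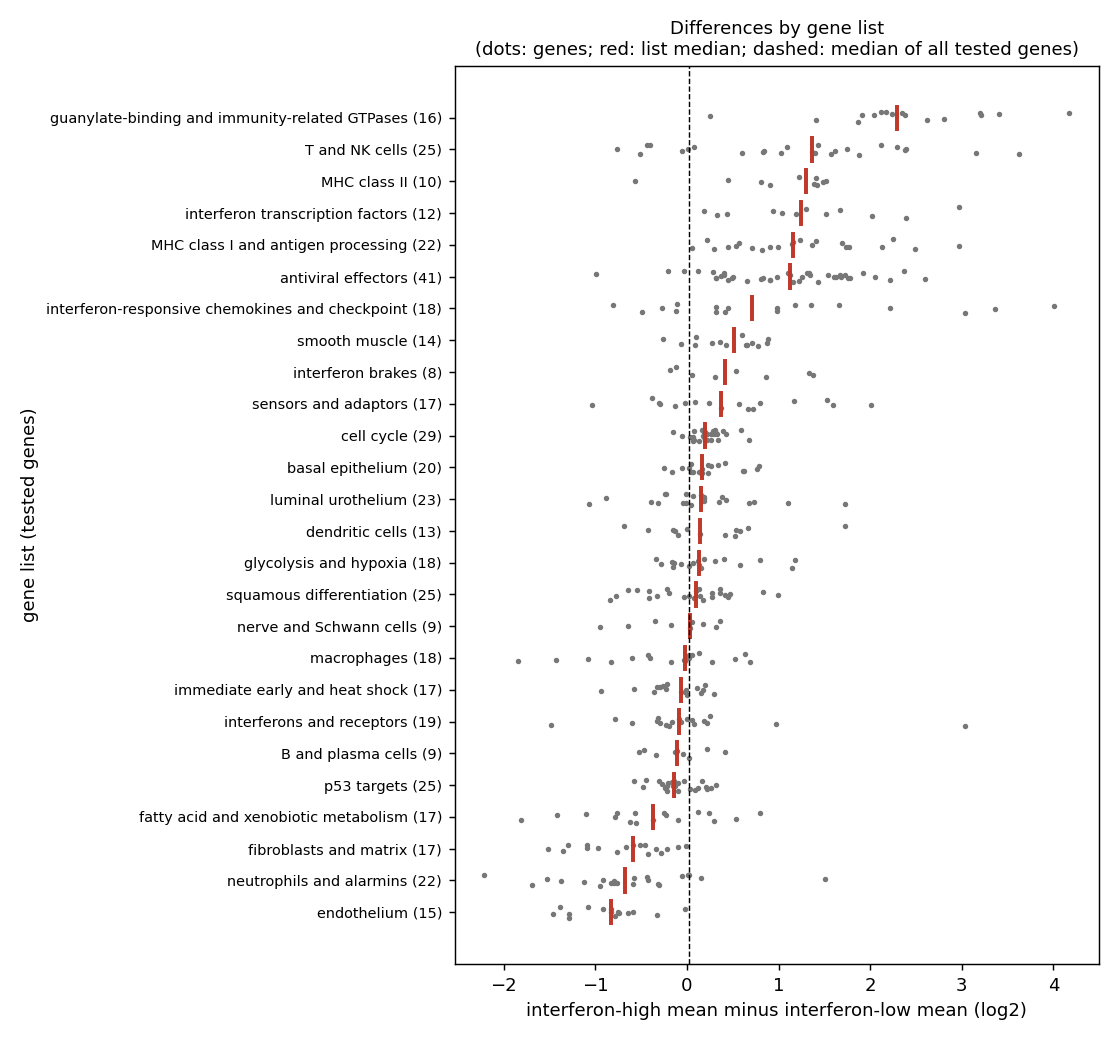
Difference of the interferon-high and interferon-low means (x axis, log2) for each tested gene (dots) of 26 lists (y axis, with the number tested), ordered by the list median (red). The dashed line is the median of all tested genes, 0.02. The GTPase list has the highest median, 2.29, and the endothelial list the lowest, -0.83.

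The 3 genes separated downward were Wfdc21, Bhmt and 2310034G01Rik, the last 2 named because the count was small. Wfdc21, a secreted protein of the whey acidic protein family, had -6.01 to -3.08 (median -3.94) on interferon-high arrays, against -3.04 to -0.33 (median -2.17) on interferon-low arrays. Its signal was above background on 1 of 6 interferon-high and 6 of 6 interferon-low arrays. Bhmt, a liver enzyme of methionine synthesis, was above background on 1 interferon-high and 3 interferon-low arrays, and its second probe differed by -0.58 with 1 array above background. These 3 genes were dim on the interferon-high side and their differences rest partly on background signal.

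The sides were next set against what the labels say of the arrays, using Fisher's exact test, two-sided, adjusted over 4 labels. An activated Trp53 mutation was carried by 3 of 6 interferon-high arrays and 5 of 6 interferon-low arrays (exact p = 0.545, adjusted p = 1). The Krt5 driver was used in 3 of 5 interferon-high arrays with a Cre and 3 of 6 interferon-low arrays (exact p = 1). A female label was on 4 of 6 interferon-high and 1 of 6 interferon-low arrays (exact p = 0.242, adjusted p = 0.970). The scanner that read slides 1 and 2 held 4 of 6 interferon-high and 5 of 6 interferon-low arrays (exact p = 1). On the 7 arrays whose sex-linked RNA matched their label, the female label was on 3 of 3 interferon-high and 0 of 4 interferon-low arrays (exact p = 0.0286, adjusted p = 0.114). That split is complete and its p is the smallest that 3 against 4 arrays can give, so the adjusted test could not have passed at that size. With 6 arrays a side, none of the 4 labels passed, and such a test sees only strong splits. Both sides held arrays of 4 of the same groups: Upk2-Cre, Upk2-Cre R172H, Krt5-Cre R172H and Krt5-Cre R270H.

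A test across all genes was possible for the mutation label, which the score did not use. The 12 arrays with an activated mutation were set against the 7 other BBN arrays in limma with 7 group means. Those 7 arrays carry 5 animal codes, since both Upk2-Cre arrays share one and Trp53 het replicates 1 and 2 share another, and sex-linked RNA did not match the sex label on 8 of the 19 arrays. With arrays of a shared code averaged, and on the 11 arrays that matched, limma also called 0 genes. No gene of 15689 (0%) reached an adjusted p of 0.05, and 1075 (6.85%) had an unadjusted p under 0.05. Of the 30 separated genes, 27 had a difference below 0 (56.4% of all tested genes did), from -0.79 to 0.25 log2 units with a median of -0.25, and 0 had an unadjusted p under 0.05. Their adjusted p-values in limma ran from 0.783 to 0.994. Gzma differed by -0.79 ± 0.96 (SE, limma adjusted p = 0.897), and Nlrc5 by -0.15 ± 0.81 (SE, limma adjusted p = 0.984). The 30 genes were chosen on sides that hold 3 of 6 and 5 of 6 mutants, so a lower value in mutants is in part built into the choice. For each of the 30 genes, the SD over the 12 mutant arrays was larger than the size of the difference. The SD over the 7 other arrays was larger too, except for Gata3 (SD 0.32, difference -0.38) and Enpp5 (SD 0.32, difference -0.43). These SDs pool arrays of several groups. The 5 genes of smallest p were Soat2, Hddc3, Mttp, Tm4sf1 and Rgs16, each with a limma adjusted p of 0.381, and none is an interferon gene of the lists.

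The size of the 30 differences was also taken within each technical division of the arrays. Their direction is fixed by the choice of genes whose sides do not overlap. Their sizes are in part fixed too, since the genes were chosen for means at least 1 log2 unit apart on these same arrays. The values below therefore describe the divisions and are no independent check. Within the scanner of slides 1 and 2 (4 interferon-high and 5 interferon-low arrays) they ran from 0.92 to 3.09 with a median of 1.72, beside a median of 1.61 over all 12 arrays. Within slide 3 (2 against 1 array) they ran from 0.27 to 5.53 with a median of 0.99. Among arrays with fewer than 2 Y-linked genes above background (5 interferon-high, 1 interferon-low) the median was 2.31 and the range 0.80 to 4.44. Among the other arrays (1 interferon-high, 5 interferon-low) the median was 1.31 and the range 0.72 to 3.53. On the arrays whose sex-linked RNA matched their label (3 interferon-high, 4 interferon-low) the median was 1.52. The single arrays on one side of some divisions give no measure of spread.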

How the data were processed

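RNA of whole bladders was labelled with Cy3 and hybridised to 1-colour Agilent arrays, 1 array a sample. Each deposited scanner file gives the processed signal intensity of every spot, made by Agilent Feature Extraction 11.0.1.1 per the file headers; the submitters' processing notes name version 9.1 and limma. The log2 values of the authors' deposited normalized table, whose scale and centring are not stated in the sources used here, served only as an alternative.

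From the processed signal, log2 minus each array's 75th percentile over 59305 non-control spots was computed, outlier spots were left out, spots of a probe were averaged, and each gene took its brightest probe (32994 of 56605 probes carry 1 gene name and 23611 none, giving 22911 genes). A gene was tested when well above background on at least 6 of 19 BBN arrays (15689 genes). Genes were called separated when the 6 arrays of each side did not overlap and the means differed by at least 1 log2 unit. The mutation label was tested in limma 3.58.1 with Benjamini-Hochberg adjustment at 0.05, and labels with Fisher's exact test in scipy 1.17.1. The fit and the separation rule were tested on simulated data with planted changes. No spot was saturated, and the number of arrays limits the precision. The limma p-values set a difference of group means against the spread between arrays within groups, and the exact tests use label counts alone. Both main tests counted arrays that share an animal code as separate arrays. Replicate numbers did not pair the samples: over 48 same-numbered pairs, deviations from group means correlated from -0.43 to 0.50 (median 0.08).

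The members and the 27 gene lists were chosen with earlier results of these data known. Named are the 20 separated genes of largest difference in each direction that were above background on the brighter side, up to 4 separated members of each list and, where fewer, those of smallest spread relative to their difference, and the marker genes Trp53, Krt5, Krt14, Upk2, Ifng and Ifnb1; exceptions are marked. Promoter sequences are RefSeq's, GRCm38.p6. Alternatives covered normalization, filter, probe choice, side size, shared animal codes, slide and scanner, and leaving out each array. Some results are not reported here.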

Additional observations from a re-analysis of the deposited data

Results flagged for a closer look

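Among the 33 separated genes and the score, each side of 6 arrays was checked for an array far from the other 5, and 2 of 68 checks found one; chance alone gives about 1 in 20. H2-K1 stood out on the interferon-high side in Krt5-Cre R172H replicate 2, at 8.41 on the log2 scale, where the other 5 arrays had 7.36 to 7.72. Cd274 stood out on the interferon-low side in Upk2-Cre R172H replicate 3, at -2.70, where the other 5 had -2.11 to -1.89.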

How the results depend on the processing

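The number of separated genes depends on how many arrays form a side, since non-overlap becomes easier with fewer arrays. It was 30 higher and 3 lower with 6 against 6, 91 higher and 13 lower with the 5 highest against the 5 lowest, and 7 higher with the 7 highest against the 7 lowest. Leaving out 1 array at a time gave 30 to 83 higher and 5 to 13 lower, with 83 higher without Krt5-Cre R270H replicate 2 and 53 without Krt5-Cre replicate 2. Within the scanner of slides 1 and 2 there were 59 higher and 31 lower, within slide 3 (2 against 1 array) 869 and 570, and among arrays with fewer than 2 Y-linked genes (5 against 1) 1020 and 1138. Arrays whose sex-linked RNA matched the label (3 against 4) gave 213 and 242. Sides chosen anew gave 18 higher after quantile normalization, 12 after averaging arrays that share an animal code, and 16 higher and 5 lower when the percentile was taken over unflagged spots, which puts Krt5-Cre R172H replicate 4 in place of Upk2-Cre R172H replicate 1; 13 of those 16 were among the 30. The lower count was 1 after quantile normalization with the sides kept, 0 after normexp with quantile normalization, 0 in the deposited table and 0 when genes had to be above background on all 12 arrays. It was 10 without both Upk2-Cre arrays and 18 without Krt5-Cre R172H replicates 1 and 2. Ifit3b was separated under all 30 alternatives, Gzma under 24, Gata3 under 18 and Gm5431 under 12, and 23 of the 30 genes lost the call with 7 arrays a side. The antiviral median of 1.12 was 1.05 to 1.34 with 1 array left out, 0.50 within slide 3 and 1.65 among arrays with fewer than 2 Y-linked genes. The T and NK cell median of 1.36 over 25 genes turned to -0.39 in the deposited table and -0.42 with genes above background on all 12 arrays, each over the 6 genes left. Of 976 further gene values, 43 moved by more than the spread within sides. Their sign cannot change under the 19 alternatives that only drop arrays. Over the 11 others, 0 of 322 values of the 30 upward genes were below 0. Those 11 include the alternatives that change only the filter, which keep the same values and so could not change a sign either. For the mutation label, limma called 0 genes, 5 with slide as a block, 1 with scanner as a block, 1 with the replicate block, and 0 to 1 with 1 array left out, the 1 arising without Upk2-Cre R270H replicate 1 or without Krt5-Cre R172H replicate 2. No label test passed under another choice of sides. The alternatives by sex-linked RNA, unflagged spots and both left-out pairs were chosen after seeing the data.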
